A study of Mus musculus with 16 samples.

Results

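The comparison was between the normal mammary fat pad of formerly obese mice and that of mice that were never obese. All animals were wild-type females of C57BL/6NCrl (C57BL/6N in the labels). CON-LFD mice ate a low-fat control diet throughout. DIO-LFD mice were made obese on a diet with 60% fat (diet-induced obesity, DIO) and were then moved to the low-fat diet, eaten without restriction, so that they lost weight by diet alone; their libraries carry the diet weight loss label. The members were the 4 DIO-LFD and the 4 CON-LFD libraries, 8 of the 16 libraries of the series, and every gene was examined. DIO-HFD mice, which stayed on the high-fat diet, serve below as the obese reference (4 libraries). Mice outside the surgery group, which was given vertical sleeve gastrectomy (DIO-VSG), had a sham operation. Every animal in all groups was also given E0771 cells, a mouse mammary cancer line, into the 4th mammary fat pad 22 weeks after randomization, and the tissue profiled was the tumor-free fat pad of the other side. The controls were therefore never obese, sham-operated and tumor-bearing, and not naive mice. Over its full groups the study reports that DIO-LFD mice were still heavier than CON-LFD mice before injection and at the end. It also reports larger tumors in DIO-LFD than in CON-LFD. The groups thus differed in more than their history of obesity. The question the comparison addresses is how gene expression in mammary fat after dietary weight loss differed from that of mice never obese. The labels name the cancer cell line beside a normal tissue, and they do not say at what time of day the tissue was taken.

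Mammary fat is white adipose tissue with embedded epithelial ducts, vessels, nerves and immune cells, and the pad can hold a lymph node. White adipocytes build fatty acids from glucose when dietary fat is scarce, store them as triglyceride and release them by lipolysis. Like most cells they also carry a circadian clock, a loop of transcription factors and repressors that sets daily rhythms in lipid and glucose metabolism.

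The 16 libraries held 46907377 to 57610899 reads assigned to genes, with 49624391 to 54179874 in DIO-LFD and 50340337 to 57355420 in CON-LFD. Adipoq, the adipocyte hormone adiponectin, stood at 59538 to 123530.0 in CON-LFD and 61906 to 82066 in DIO-LFD in normalized counts (reads divided by the library's size factor), and Krt8, a keratin of luminal epithelium, at 8525 to 16153 in CON-LFD and 8292 to 36653 in DIO-LFD. The libraries of a group were not alike in tissue content. The mean log2 level of 23 B cell markers, relative to the CON-LFD mean, was 1.503, -3.52, 3.38 and -1.36 in CON-LFD replicates 1 to 4, and Acta1, skeletal muscle actin, reached 26673 in DIO-LFD replicate 4. No label says whether the 4 libraries of a group came from separate litters or cages, so P values measure only the spread between these samples.

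Few genes separated the groups. Of 21218 genes tested with limma, 1 passed a Benjamini-Hochberg adjusted P below 0.05, which is 0.00471% of them. At an unadjusted P below 0.05 there were 1328 genes (6.26%), with 686 (3.23%) above and 642 (3.03%) below the controls. The median log2 difference over all genes was 0.02, and 325 of the 1328 genes differed by at least 1 on the log2 scale, 198 of them higher and 127 lower. The 4 values of each group did not overlap for 367 genes higher in DIO-LFD (1.73%) and 383 lower (1.81%), in all 750 genes (3.53%). The share of higher genes among the 1328 was 51.7%, but it was 33.7% (461 higher, 906 lower) after quantile normalization and 35.7% (464 higher, 834 lower) after centring each library on its median, and 60.8% (1613 higher, 1041 lower) without CON-LFD replicate 3. Below, a gene is said to pass the unadjusted threshold when its limma P was below 0.05 before adjustment. In each gene list the 2 members of smallest P and a few genes fixed by name are given by rule, and further members were named after their values were seen. Apart from the 1 gene, none of the members named below passed after adjustment. All differences are DIO-LFD minus CON-LFD on the scale of log2(normalized count + 1), which understates differences of low genes. The median 95% confidence interval of a gene reached 0.54 to either side on that scale.

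For scale, the same fit called 8 genes after adjustment and 2735 before it (12.9%) between DIO-HFD and CON-LFD, and 0 after adjustment and 1809 before it between DIO-LFD and DIO-HFD. These comparisons share libraries with the one described here, so their values are given side by side and are not independent of each other.

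The 1 gene that passed was Gm15725, which rose in DIO-LFD. It is annotated as a transcribed processed pseudogene, a copy of a messenger RNA inserted into the genome, at chr16:37882542-37883631 on the plus strand of GRCm38. It lies inside the last exon of Lrrc58 (chr16:37868389-37888858), a protein-coding gene on the same strand. Normalized counts were 80.6, 83.8, 200.2 and 147 in CON-LFD and 854, 683, 799.5 and 683 in DIO-LFD, so that the lowest DIO-LFD library lay more than 3 times above the highest CON-LFD library. The log2 difference was 2.65 ± 0.33 (SE) with a 95% interval of 1.96 to 3.35 and an adjusted P of 0.0213. DIO-HFD libraries stood at 731 ± 136 (SD, n = 4), and the difference between DIO-LFD and DIO-HFD was 0.06 (adjusted P = 0.986). Over the alternatives tried the adjusted P ranged from 0.00484 to 0.372 and the log2 difference from 2.10 to 2.92. The call was lost under 9 alternatives, among them voom weights on the reads (0.0522), the 8 libraries alone (0.372) and the fits without CON-LFD replicate 1 (0.121), without DIO-LFD replicate 1 (0.146), 2 (0.0985), 3 (0.137) or 4 (0.0982), or without DIO-HFD replicate 2 (0.0512). Outside its own locus the transcript matched Actb, the gene of beta-actin, best, at 91.8% identity over 1133 aligned bases. Lrrc58 differed by -0.05 and Actb by -0.02. Reads of Gm15725, Lrrc58 and Actb may be shared by the counting, so the level of the pseudogene is uncertain.

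Of the 55 gene lists examined, the circadian clock had the largest share of members past the unadjusted threshold. All 19 members of the list were tested, and 9 passed the unadjusted threshold, 3 higher and 6 lower in DIO-LFD, beside 6.26% of all genes. The count stayed between 7 and 11 in all 30 alternatives tried, and none of the 19 passed after adjustment. The median over the list was -0.29, and it ranged from -0.445 (library weights) to -0.157 (without DIO-LFD replicate 4) over the alternatives. The values of the groups did not overlap for 1 member, Nr1d2.

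In the clock loop, CLOCK or its relative NPAS2 pairs with ARNTL (BMAL1) and binds the E-box, CACGTG, in the promoters of Per, Cry, Nr1d and Dbp genes. PER and CRY proteins repress that pair. NR1D1 and NR1D2 (REV-ERBs) repress Arntl and Nfil3 at the ROR element, TAGGTCA, where ROR proteins activate. DBP, TEF and HLF activate at the D-box, TTANGTAA, and NFIL3 represses there. Among 32851 promoters of RefSeq (GRCm38.p6, 250 bases before to 50 after each start), searched on both strands, 7.15% held CACGTG, 2.32% TTANGTAA and 2.61% TAGGTCA. Of the 19 clock genes, 16 had an entry there, with 21 promoters, and 5 of them held the E-box (Bhlhe41, Ciart, Cry1, Per1 and Tef), 1 the D-box (Per3) and 2 the ROR element (Arntl and Nfil3). CACGTG is its own reverse complement. The stretches of the 5 members below are shown because all of them passed the unadjusted threshold, 3 lower and 2 higher, and each holds a motif of the loop, written in capitals. They are given 5′ to 3′ on the gene's strand: Ciart at chr3:95882229-95882378 (minus strand, motifs 116, 58 and 44 bases before the start), Tef at chr15:81802523-81802672 (plus strand, 127 before), Per3 at chr4:151044741-151044890 (minus strand, 205 and 158 before), Arntl at chr7:113207531-113207557 (plus strand, 31 after the start) and Nfil3 at chr13:52981040-52981189 (minus strand, 12 before, where the motif lies on the reverse strand and reads TGACCTA).
Ciart: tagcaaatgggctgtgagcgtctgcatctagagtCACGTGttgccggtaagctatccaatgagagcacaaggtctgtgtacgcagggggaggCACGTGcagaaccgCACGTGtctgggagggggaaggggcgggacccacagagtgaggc
Tef: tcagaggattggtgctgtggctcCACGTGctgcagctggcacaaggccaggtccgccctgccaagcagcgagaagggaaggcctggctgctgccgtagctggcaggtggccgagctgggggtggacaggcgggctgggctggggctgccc
Per3: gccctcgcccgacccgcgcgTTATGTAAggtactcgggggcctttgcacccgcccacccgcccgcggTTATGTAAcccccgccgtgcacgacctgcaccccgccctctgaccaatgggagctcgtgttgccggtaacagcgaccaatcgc
Arntl: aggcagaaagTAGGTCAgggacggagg
Nfil3: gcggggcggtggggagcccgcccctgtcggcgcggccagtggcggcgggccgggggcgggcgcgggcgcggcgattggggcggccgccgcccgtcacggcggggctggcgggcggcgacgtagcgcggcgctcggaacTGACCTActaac
A match is a description of the letters and not evidence that a factor was bound in these samples.

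Arntl and Npas2, of the activating pair, and the repressor Nfil3 passed the unadjusted threshold with higher values in DIO-LFD. Arntl, the partner of CLOCK, had normalized counts of 301, 180.2, 558 and 229 in CON-LFD and 941, 429, 692 and 868 in DIO-LFD. Its difference was 1.28 ± 0.34 (SE) with an unadjusted P of 0.00194 and an adjusted P of 0.478 by limma. DIO-LFD replicate 2 lay below CON-LFD replicate 3, the highest control, and the other 3 lay above every control. Npas2 stood at 119, 40.3, 59.0 and 81.4 in CON-LFD and 402, 76.4, 247 and 302 in DIO-LFD, a difference of 1.64. Nfil3, the repressor of D-box genes, stood at 267, 312, 419 and 264 in CON-LFD and 1076, 627, 358 and 457 in DIO-LFD, a difference of 0.89. For each of these 3 genes DIO-LFD replicate 1 was the highest of the 8 libraries. Clock itself differed by 0.38 and did not pass (unadjusted P = 0.0751 by limma).

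Among repressors, Nr1d2, Per3 and Ciart passed the unadjusted threshold with lower values in DIO-LFD. Nr1d2, the REV-ERB repressor, stood at 7960.2, 9709, 7292 and 9170.2 in CON-LFD and 3580.1, 6837, 6127 and 4989 in DIO-LFD, a difference of -0.70 ± 0.18 (SE) with an unadjusted P of 0.00165 and an adjusted P of 0.472 by limma. All 4 DIO-LFD values lay below all 4 control values. Per3, a period gene, stood at 8371, 10875, 5659.5 and 8426 in CON-LFD and 2327, 6169, 4229 and 2898 in DIO-LFD, a difference of -1.16 ± 0.33 (SE). Ciart, a repressor of the CLOCK pair, stood at 486, 561, 367 and 591 in CON-LFD and 167, 519, 157 and 127 in DIO-LFD, a difference of -1.27. In both, DIO-LFD replicate 2 was the highest of its group and lay within the control range.

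The 3 D-box activators were lower together. Dbp stood at 6486, 6510.3, 4103 and 9119 in CON-LFD and 329, 5112, 4564 and 2502 in DIO-LFD, a difference of -1.59 ± 0.69 (SE). Tef stood at 14111, 19529.9, 11158 and 15666 in CON-LFD and 6943, 14995, 8865 and 7041 in DIO-LFD, a difference of -0.72. Hlf stood at 3761, 3789, 2192 and 3671 in CON-LFD and 1079.8, 3036, 1935 and 1214 in DIO-LFD, a difference of -0.97. In each, DIO-LFD replicates 1 and 4 were the lowest of the group and lay below every control, and DIO-LFD replicate 2 lay within the control range. Of the 9 clock genes that passed, DIO-LFD replicate 2 lay within the control range for 7, replicate 3 for 2 and replicates 1 and 4 for 0. The libraries of DIO-LFD thus differed among themselves in their clock genes.

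The other 10 clock genes did not pass. The 2 remaining period genes differed by -0.71 (Per2) and -0.30 (Per1), the cryptochromes by -0.15 (Cry1) and -0.07 (Cry2), and Nr1d1, the other REV-ERB, by -0.22. Rora, an activator at the ROR element, differed by -0.29, and Bhlhe40 and Bhlhe41, further E-box repressors, by 0.12 and -0.27. Of the 19 members, 14 had a negative and 5 a positive difference.

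In obese DIO-HFD mice the clock genes were displaced from the same controls as well. There 10 of 19 passed the unadjusted threshold, beside 12.9% of all genes in that comparison. DIO-HFD minus CON-LFD was 1.28 for Arntl, 0.61 for Npas2, -0.46 for Nr1d2, -0.73 for Per3, -1.19 for Ciart, -1.13 for Dbp, -0.65 for Tef and -0.996 for Hlf. Nfil3 was the exception in sign, at -0.07. Between DIO-LFD and DIO-HFD, Arntl differed by 0.001 (adjusted P = 0.999), Nr1d2 by -0.24 (adjusted P = 0.819) and Nfil3 by 0.96 (adjusted P = 0.463). These P values do not show that the groups were alike.

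**Figure D1:**
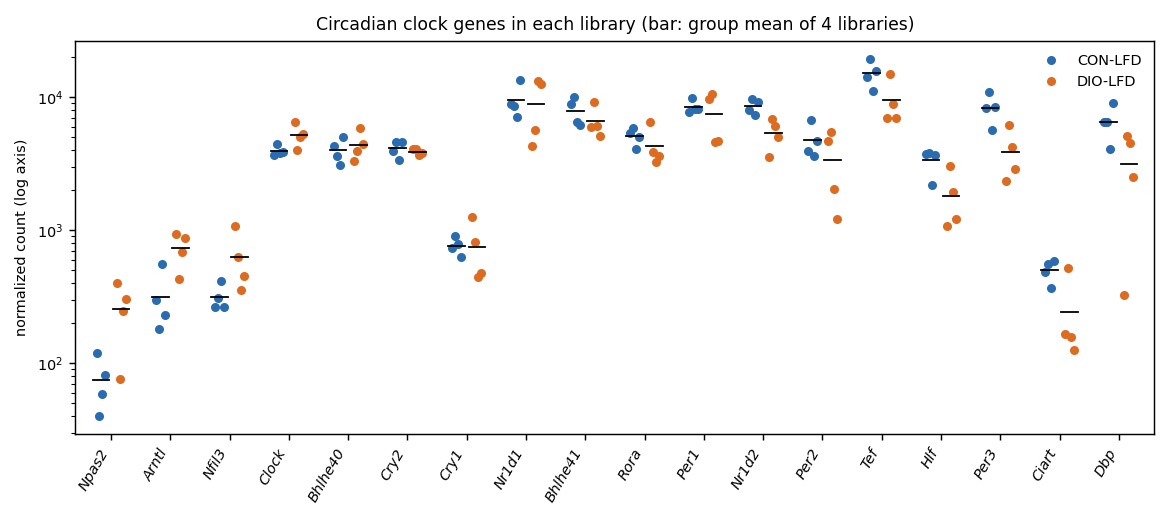
Normalized counts (log axis) of 18 clock genes in the 4 CON-LFD and 4 DIO-LFD libraries, 1 point per library and a bar at the group mean. Arntl, Npas2 and Nfil3 lie higher and Nr1d2, Per3, Ciart, Dbp, Tef and Hlf lower in DIO-LFD than in CON-LFD, and of these Nr1d2 does so without overlap.

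Metabolic genes of the adipocyte did not separate DIO-LFD from CON-LFD. The 24 genes of de novo lipogenesis, which make fatty acids from glucose, had a median difference of 0.20, with 0 members past the unadjusted threshold. DIO-HFD minus CON-LFD had a median of -1.23 with 15 past it, beside 12.9% of all genes. The mean log2 level of the list relative to the CON-LFD mean was 0.45, 0.08, -0.80 and 0.27 in CON-LFD and -1.04, 0.78, 0.13 and 1.03 in DIO-LFD. The spread within each group was wide, and DIO-LFD replicate 1 was the lowest of the 8 libraries, followed by CON-LFD replicate 3. The median of this list was -0.01 without DIO-LFD replicate 4 and 0.75 without DIO-LFD replicate 1.

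Fasn, fatty acid synthase, had normalized counts of 474207, 245936, 84151 and 226136 in CON-LFD and 21753, 694004, 310259 and 685104 in DIO-LFD, a difference of 0.13 ± 1.02 (SE). In DIO-LFD replicate 1 it was at the level of the obese mice (22337 ± 10446 (SD, n = 4)), and in the other 3 it lay from 310259 to 694004. Acaca, which makes malonyl-CoA for that enzyme, stood at 74055, 52504, 23297 and 44973 in CON-LFD and 33002, 128797, 63859 and 116118 in DIO-LFD, a difference of 0.74 ± 0.59 (SE), and of 0.42 without CON-LFD replicate 3 or 1.13 without DIO-LFD replicate 1. Scd1, the stearoyl-CoA desaturase, stood at 3717867, 2682571, 1342739.7 and 2901225 in CON-LFD and 311099, 2486893, 1333016 and 3768151 in DIO-LFD, a difference of -0.83. Without DIO-LFD replicate 1 the difference was -0.11 for Scd1 and 1.28 for Fasn, and without DIO-LFD replicate 2 it was -0.38 for Fasn. All 3 genes overlapped between the groups. DIO-LFD minus DIO-HFD was 3.55 for Fasn (adjusted P = 0.424) and 3.20 for Acaca (adjusted P = 0.296). Acly and G6pdx, the list's members of smallest P, differed by 1.06 and 0.73 and did not pass.

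Triglyceride synthesis, lipolysis and fatty acid oxidation had 0 members past the unadjusted threshold in DIO-LFD. Triglyceride synthesis (12 of 14 genes tested) had a median of 0.03 in DIO-LFD and -1.01 in DIO-HFD, each minus CON-LFD, with 0 and 9 members past the unadjusted threshold. Lipolysis and lipid droplet genes (20) had 0.02 and -0.45, with 0 and 3 past, where 12.9% of all genes passed in DIO-HFD. Fatty acid oxidation (23) had -0.23 and -0.71, with 0 and 11 past. Without CON-LFD replicate 3 the DIO-LFD median was -0.45 for oxidation and -0.28 for triglyceride synthesis. With the B cell level as a covariate the DIO-LFD median of oxidation was 0.07. In each of these lists the obese median lay below the DIO-LFD median.

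Mitochondrial respiratory chain genes gave values of the same kind. Complex I (36 subunits) had a median of 0.03 in DIO-LFD with 0 past the unadjusted threshold. In DIO-HFD it had -0.44 with 20 past, beside 12.9% of all genes. Complexes II to V (39) had -0.02 with 2 past and, in DIO-HFD, -0.54 with 30 past, beside the same 12.9%. The 2 were ATP synthase subunits, Atp5g1 (0.28) and Atp5e (0.34), both higher, a share below the 6.26% of all genes. Branched-chain amino acid catabolism (20) had -0.11 with 1 past and -0.55 in DIO-HFD with 14 past, beside 6.26% and 12.9% of all genes. Cholesterol synthesis (21) had 1 member past, Acat2 (0.66, and 0.43 with library weights), beside 6.26% of all genes. Its list median was 0.19, and 0.01 without DIO-LFD replicate 4 or 0.32 without DIO-LFD replicate 1.

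Thermogenic genes had a median of -0.68 over 19 of 20 members tested, with 0 past the unadjusted threshold. In DIO-HFD the median was -1.98 with 12 past, beside 12.9% of all genes. Ucp1, the uncoupling protein of brown and beige adipocytes, stood at 2182, 24043, 292 and 1344 in CON-LFD and 682, 2098, 873 and 114 in DIO-LFD, a difference of -1.79. CON-LFD replicate 2 held by far the highest value, and without it the median of the list was -0.09, while it was -1.33 without CON-LFD replicate 3. Cidea, a lipid droplet protein of the same cells, differed by -0.80, and by 0.11 without that library. Neither gene passed, and the spread within CON-LFD was wider than the difference.

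Genes of adipocyte identity (20) had a median of -0.04 with 0 past. Adipoq differed by -0.26 and Lep, the leptin gene, by 0.09, with Lep at 34589, 31744, 32586 and 67714 in CON-LFD and 104465, 25285, 25136 and 46975 in DIO-LFD. Without DIO-LFD replicate 1 Lep differed by -0.35. Of the insulin signalling genes (20), Slc2a1, the basal glucose transporter, passed the unadjusted threshold (0.76, and 0.45 without DIO-LFD replicate 2). Igfbp2, an IGF-binding protein, did so in the growth hormone list of 16 (-1.40). These single members stand beside 3.23% of all genes higher and 3.03% lower.

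**Figure D2:**
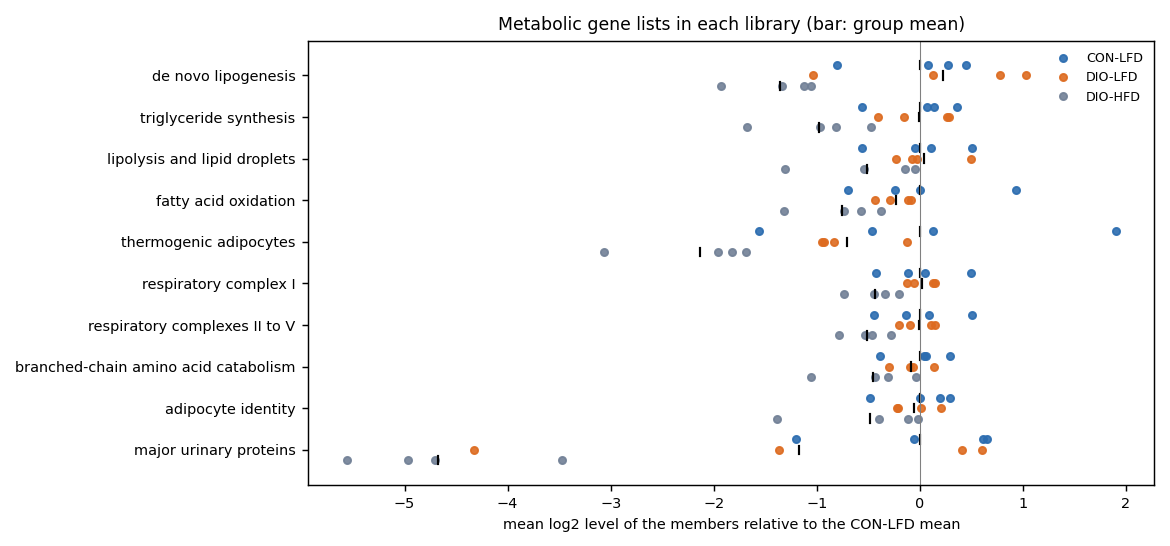
Mean log2 level of each metabolic gene list relative to the CON-LFD mean, 1 point per library and a bar per group mean, for CON-LFD, DIO-LFD and DIO-HFD. DIO-LFD libraries overlap the controls in every list drawn, and DIO-LFD replicate 1 lies at -1.04 for de novo lipogenesis, just above the DIO-HFD libraries (-1.93 to -1.05).

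Major urinary proteins had negative differences that rested in part on 1 library. They are secreted pheromone carriers of the lipocalin family, and 10 of the 22 genes in the list were expressed enough to be tested. All 10 had a negative difference, with a median of -0.86, and 1 passed the unadjusted threshold, beside 3.03% of all genes lower. Mup9 stood at 1521, 743, 637 and 1988 in CON-LFD and 25.1, 543, 195 and 481 in DIO-LFD, a difference of -2.52 ± 0.93 (SE) with an unadjusted P of 0.0169 by limma. The 4 DIO-LFD values lay below all controls, as for 1.81% of all genes, and DIO-LFD replicate 1 was lowest, near the DIO-HFD mean of 18.8. Without it the difference of Mup9 was -1.56. Mup11 differed by -0.81, and by 0.32 without DIO-LFD replicate 1. In DIO-HFD the median was -4.52 and all 10 passed, beside 12.9% of all genes. The DIO-LFD median was 0.06 without DIO-LFD replicate 1, and reads of these near-identical genes may be split between them, so single members are uncertain.

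Pon1, a secreted paraoxonase, stood at 219, 169.6, 144 and 217 in CON-LFD and 139.8, 81.3, 88.6 and 122 in DIO-LFD, a difference of -0.80. The groups did not overlap, but the gene fell short of the threshold (unadjusted P = 0.0523 by limma). Cacna1e, a calcium channel subunit, differed by 0.41 from CON-LFD (0.21 without CON-LFD replicate 2 and 0.80 without CON-LFD replicate 3) and by -2.32 from DIO-HFD (adjusted P = 0.296 for the second). Of 20 voltage-gated calcium channel subunits, 0 passed.

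Antioxidant genes under Bach1 and Nrf2, the repressor and the activator of the same response element, were higher in part. Of 21 members 4 passed the unadjusted threshold, all higher, beside 3.23% of all genes, and the median was 0.17. Gclc, the catalytic subunit of the enzyme that limits glutathione synthesis, stood at 2659, 4049, 4694 and 2621 in CON-LFD and 6427, 5183, 4723 and 4560.3 in DIO-LFD, a difference of 0.61 ± 0.18 (SE) with an unadjusted P of 0.00377 by limma. Nqo1, a quinone reductase, stood at 258, 331, 209 and 235 in CON-LFD and 443, 309.5, 414 and 323 in DIO-LFD, a difference of 0.53. Txnrd1, thioredoxin reductase, differed by 0.33 and Gpx3, the secreted glutathione peroxidase, by 1.21. No single gene was free of overlap between the groups. The mean log2 level of the list was -0.04, 0.04, -0.01 and 0.001 in CON-LFD and 0.33, 0.25, 0.10 and 0.20 in DIO-LFD, without overlap, which held for 1 of the 55 lists examined. The number of members past the threshold ranged from 1 (after median-centring) to 6. Gclc was 0.93 higher than in DIO-HFD on the log2 scale (adjusted P = 0.296).

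Immediate early genes, the AP-1 transcription factors and their relatives that cells switch on within minutes of a stimulus, leaned higher. Of 20 members 5 passed the unadjusted threshold, all higher, beside 3.23% of all genes in that direction, and 4 of the 5 did not overlap between the groups, beside 1.73%. The median was 0.48. DIO-HFD minus CON-LFD had a median of 0.41 with 3 members past, beside 12.9% of all genes. DIO-LFD minus DIO-HFD had a median of -0.03 with 0 past, where 1809 genes passed in all. Jund stood at 5323, 4602, 6094 and 5601 in CON-LFD and 6424, 7148, 7736 and 7635 in DIO-LFD, a difference of 0.42 ± 0.12 (SE). Junb stood at 2372, 2412, 2608 and 2538 in CON-LFD and 4846, 3619, 3135 and 2886 in DIO-LFD, a difference of 0.52 ± 0.16 (SE). For both, every DIO-LFD library lay above every control. Fos, with a difference of 1.004, and Fosb, with 0.98, also separated the groups, and Ier2 (0.49) did not. The count was 3 without DIO-LFD replicate 1 or after correction for GC content and length, and 8 without CON-LFD replicate 3.

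Dusp4, a phosphatase that inactivates MAP kinases and is itself induced by them, was among the protein-coding genes that separated the groups most clearly. It stood at 1484, 2343, 2126 and 1626 in CON-LFD and 4292, 3579.7, 5235 and 4276 in DIO-LFD, a difference of 1.21 ± 0.29 (SE) with an unadjusted P of 0.000824 and an adjusted P of 0.416 by limma. All 4 DIO-LFD libraries exceeded the highest control. DIO-HFD libraries averaged 2035 ± 852 (SD, n = 4), near the controls.

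Dusp4 was 1 of 20 protein-coding genes chosen by rule, the 10 higher and the 10 lower of smallest P among those with at least 50 normalized counts in a group and no overlap. They were drawn from 195 higher and 212 lower genes that met those terms. Since the rule used this contrast, their values are a description. Spsb3, an adaptor of ubiquitin ligases, stood at 758, 829, 989.8 and 759.7 in CON-LFD and 1138, 1109.9, 1161 and 1078 in DIO-LFD, a difference of 0.44 ± 0.10 (SE). Every DIO-LFD library exceeded every control. Other higher genes were Ssna1 (0.35), Oaz1, which restrains polyamine synthesis (0.38), Psmb3 of the proteasome (0.29), Ctu2 of transfer RNA modification (0.47) and the ribosomal protein genes Rpl21 and Rpl10 taken up below.

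Among the 10 lower genes Cys1, which encodes a protein of the primary cilium, had the largest difference. It stood at 522, 486, 478 and 972 in CON-LFD and 187, 348, 277 and 161 in DIO-LFD, a difference of -1.33 ± 0.32 (SE). CON-LFD replicate 4 was the highest, and the other 3 controls still lay above every DIO-LFD value. Gm21970 differed by -0.88, Manea, a mannosidase of the Golgi, by -0.45, Fcho2, which acts in endocytosis, by -0.41, and Pgm2l1, which makes glucose 1,6-bisphosphate, by -0.37. The remaining members were Zfp386 (-0.34), Sppl2a, an intramembrane protease (-0.32), Zc3h14, a poly(A)-binding protein (-0.30), Dpy19l4 (-0.28) and Eif2a (-0.27), a translation initiation factor. After correction for GC content and length, 7 of the 10 lower genes differed less by over 1.5 times, namely Manea (-0.25), Fcho2 (-0.23), Pgm2l1 (-0.22), Zfp386 (-0.18), Sppl2a (-0.13), Eif2a (-0.11) and Dpy19l4 (-0.08), whereas Cys1 (-1.39), Gm21970 (-0.91) and Zc3h14 (-0.21) did not. The adjusted P of the 20 genes ranged from 0.386 to 0.472.

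**Figure D3:**
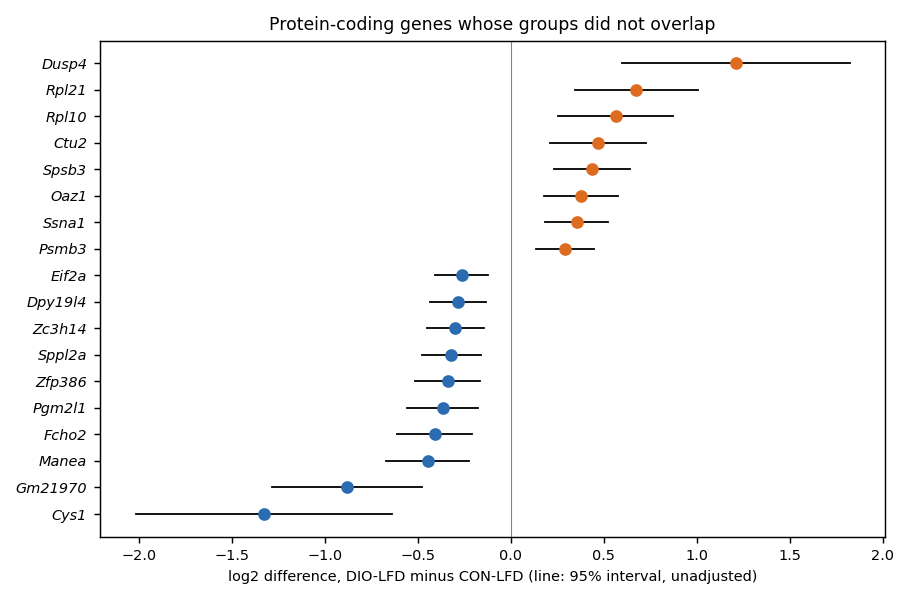
Log2 difference (DIO-LFD minus CON-LFD) of 18 of the 20 protein-coding genes chosen by rule, with the point at the estimate and the line its unadjusted 95% interval. Dusp4 at 1.21 and Cys1 at -1.33 lie farthest from 0, and most others lie within 0.5 of it.

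No lymphocyte list had a member past the unadjusted threshold, and the controls varied widely. All 23 B cell markers had a positive log2 difference, with a median of 2.52, and 0 passed. In bulk tissue more cells of a type and more RNA per cell cannot be told apart. The mean log2 level of the list relative to the CON-LFD mean was 1.503, -3.52, 3.38 and -1.36 in CON-LFD and 1.37, 2.43, 2.35 and 2.27 in DIO-LFD, so that the 4 DIO-LFD libraries were close to each other and the controls were split, with replicates 2 and 4 low. The T cell list (22 of 22 positive, median 1.27) and lymph node stroma and homing genes (12 of 12 positive, median 1.79) had the same sign, and 0 of their members passed. Cd3e, a T cell receptor subunit, stood at 1342, 136, 3788 and 171 in CON-LFD and 961, 981, 1353 and 1883 in DIO-LFD. Its mean normalized count was lower in DIO-LFD (1294) than in CON-LFD (1359), while its log2 difference was 1.08, since CON-LFD replicates 2 and 4 were low. The median standard error of a B cell gene was 1.54 on the log2 scale, beside 0.25 for all genes. With the B cell level as a covariate the medians were -0.40 for T cells and -0.09 for lymph node stroma. Without CON-LFD replicate 3 they were 2.20 and 2.68, and Cd3e differed by 1.98.

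Myeloid genes were less uniform. Nos2, inducible nitric oxide synthase, passed the unadjusted threshold. It stood at 239.5, 384, 249 and 318 in CON-LFD and 522, 793, 321 and 523 in DIO-LFD, a difference of 0.81 ± 0.33 (SE), and the groups overlapped. All 13 members of the neutrophil and suppressive myeloid list had a positive difference and 2 passed, beside 3.23% of all genes. The list median was 1.17, and 0.59 on the deposited scale. Adgre1, the macrophage marker F4/80, stood at 1090.4, 624, 1196 and 18530.3 in CON-LFD and 2914, 1384, 1931 and 1377 in DIO-LFD, with CON-LFD replicate 4 far above the rest. Of 17 macrophage genes Fcgr1, a high-affinity IgG receptor, passed (0.79), beside 3.23% of all genes higher. Of 16 lipid-associated macrophage genes 0 passed (median 0.14, and 0.85 in DIO-HFD). Itgad, an integrin of macrophages in obese fat, differed by 0.03.

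Inflammatory and antigen presentation genes gave few calls. Il6, the cytokine interleukin 6, was low in all libraries, at 0, 4.24, 1.84 and 4.02 in CON-LFD and 24.0, 15.9, 5.72 and 8.17 in DIO-LFD, without overlap between the groups. Its difference of 2.11 rests on few reads and was 0.97 with a pseudocount of 8 and 0.48 on the deposited scale. Socs3, a feedback inhibitor of IL-6 signalling, differed by 0.68 and passed, as 2 of the 24 NF-kB genes did in all, beside 6.26% of all genes. Of 26 interferon-stimulated genes 2 passed, Gbp2 (-0.29) and the chemokine Cxcl9 (-0.50), both lower without overlap, beside 3.03% of all genes lower and 1.81% lower without overlap, while the median of the list was 0.15. Of 17 genes of MHC class I presentation B2m, its invariant light chain, passed at -0.54 and Erap1, which trims peptides, at -0.19, beside 3.03% of all genes lower, while the list median was 0.19. The interferon median was -0.06 without DIO-LFD replicate 2 and the MHC class I median -0.09 with the B cell level as a covariate, and Erap1 differed by -0.03 after correction for GC content and length.

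**Figure D4:**
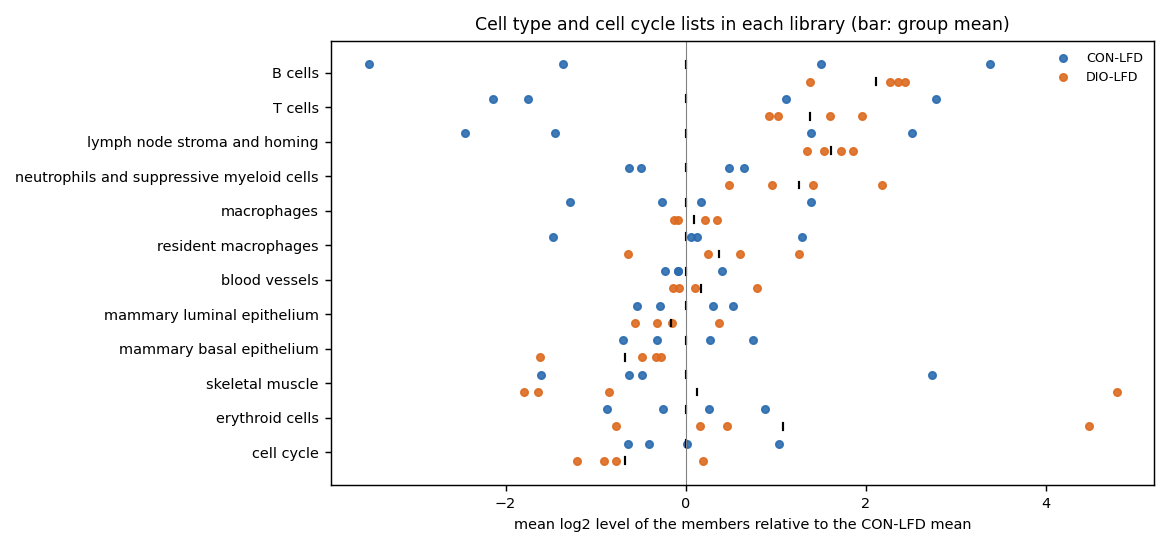
Mean log2 level of cell type marker lists relative to the CON-LFD mean, 1 point per library and a bar per group mean. B cell scores of the controls run from -3.52 to 3.38 while those of DIO-LFD lie between 1.37 and 2.43, and skeletal muscle reaches 4.79 in DIO-LFD replicate 4.

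Cell cycle genes leaned lower. All 32 members had a negative difference, with a median of -0.69, and 4 passed the unadjusted threshold, beside 3.03% of all genes that were lower. Nusap1, a spindle protein, stood at 1372, 403, 552 and 539 in CON-LFD and 277, 419.6, 286 and 279 in DIO-LFD, a difference of -1.03 ± 0.33 (SE). Ccne2, a cyclin of the entry into DNA replication, stood at 562, 307, 328 and 339 in CON-LFD and 244, 308, 174 and 219.6 in DIO-LFD, a difference of -0.68 ± 0.24 (SE). Mki67, the proliferation marker Ki-67, differed by -1.41 and Ccnb2, a mitotic cyclin, by -1.36. CON-LFD replicate 1 was the highest of the 8 libraries for 30 of the 32 genes, and without it the list median was -0.32, Nusap1 differed by -0.67 and 1 member passed, while 9 passed without CON-LFD replicate 2 and 16 without DIO-LFD replicate 2. With library weights the count was 29, and with the B cell level as a covariate it was 10.

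Matrix genes showed 3 members lower in 1 list. Of 20 matricellular proteins and proteoglycans, Aspn (asporin, -0.94), Postn (periostin, -0.96) and Bgn (biglycan, -0.50) passed the unadjusted threshold, all lower, beside 3.03% of all genes, with a list median of -0.19. Postn stood at 52591, 23557, 16470.1 and 37588 in CON-LFD and 6617, 21161, 20242 and 18814 in DIO-LFD. DIO-LFD replicate 1 was far below the rest of its group, and without it the difference of Postn was -0.56. Aspn differed by -0.60 without CON-LFD replicate 4. Of 22 collagens and elastic fibre genes 0 passed, and Col1a1 differed by -0.53, but by 0.22 without DIO-LFD replicate 1. Thbs2, a thrombospondin, differed by 0.03. Adamts4, a protease that cuts aggrecan and versican, stood at 174, 92.2, 78.4 and 139 in CON-LFD and 2469, 245, 287 and 330.0 in DIO-LFD, a difference of 2.08 ± 0.77 (SE) without overlap, with DIO-LFD replicate 1 well above the others (1.30 without it).

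Few epithelial genes passed. Of 18 luminal genes 0 passed (median -0.20, and -0.82 in DIO-HFD with 9 past, beside 12.9% of all genes), and Krt8 differed by 0.41. With 1 library left out the luminal median ran from -0.37 to -0.03, and Krt8 from 0.045 (without DIO-LFD replicate 2) to 0.76 (without DIO-LFD replicate 1). Of 10 basal genes Vsnl1, a calcium sensor, passed at -1.48 (-0.78 on the deposited scale), beside 3.03% of all genes lower. Of the 10, 9 had a negative difference, with a median of -0.60 that ranged from -0.84 to -0.33 over the alternatives. Of 9 milk protein genes Trf, transferrin, passed at 0.86, beside 3.23% of all genes higher. Krt10, a keratin of skin, stood at 128, 121, 88.6 and 127 in CON-LFD and 86.2, 304, 144 and 157 in DIO-LFD, and 0 of 12 keratinocyte genes tested passed (median 0.81). Acta1 stood at 914, 2507, 2279 and 8669.8 in CON-LFD and 1106, 1517, 839.5 and 26673 in DIO-LFD, and the skeletal muscle list had a median of 0.03, which was -1.25 without DIO-LFD replicate 4 and 1.07 without CON-LFD replicate 4. Markers of skin and muscle were detected in libraries of either group, and their part in the other results was not tested.

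Of 24 imprinted genes Kcnq1ot1, a long noncoding RNA that silences its neighbours on the paternal chromosome, passed at -0.43 without overlap. Of all genes 3.03% passed with lower values and 1.81% were lower without overlap. Of 14 genes for DNA methylation enzymes and readers 0 passed, and the median was -0.04. Among 21 genes of the unfolded protein response Xbp1, its transcription factor (0.58), and Hspa5, the chaperone BiP (0.33), passed, both higher, beside 3.23% of all genes. Without DIO-LFD replicate 1 the differences were 0.31 for Xbp1 and 0.20 for Hspa5.

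By type of gene, the share past the unadjusted threshold was largest among pseudogenes. Of 1383 processed pseudogenes tested, all classes together, 247 passed (17.9%), 156 higher and 91 lower, beside 5.31% of 15486 protein-coding genes (823, with 407 higher and 416 lower). Of 102 unprocessed pseudogenes, which arise by duplication of a gene, 18 passed (17.6%), and of 65 in the separate class of transcribed unprocessed pseudogenes 4.62% did. Antisense genes (5.75% of 992) and lincRNAs (4.26% of 680) were near the protein-coding share. Of the 1597 pseudogenes of any class, 1496 had a match among coding sequences, with a median identity of 96.7%, and 927 were at least 95% identical to it. Of the 259 that passed and had a match, 66 (25.5%) matched a cytosolic ribosomal protein, beside 303 (20.3%) of all with a match. The sources used here name different counting tools, which divide reads of more than 1 possible origin differently, so levels of these genes are uncertain.

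The pseudogene Rpl18-ps2 is an example, chosen after its values were seen, as were the pseudogenes named after it. It is at chr6:128313357-128313923 and differs from the coding sequence of Rpl18 (chr7:45715457-45720836) at 4 of 567 aligned bases (99.3% identity). The stretch of bases 53 to 142 of that coding sequence is shown because it carries 2 of the 4 mismatches, in capitals, and all its other bases are shared.
Rpl18: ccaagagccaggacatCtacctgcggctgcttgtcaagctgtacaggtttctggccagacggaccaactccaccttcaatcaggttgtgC
Rpl18-ps2: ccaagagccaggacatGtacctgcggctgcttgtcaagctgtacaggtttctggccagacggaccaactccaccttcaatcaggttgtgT
Rpl18-ps2 stood at 128, 227, 257 and 149 in CON-LFD and 558, 456, 422 and 427 in DIO-LFD, a difference of 1.34 ± 0.22 (SE) (adjusted P = 0.127 by limma), and every DIO-LFD library was above every control. Rpl18, at far higher counts, differed by 0.27.

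Another pair went in opposite directions. Rpl21-ps8, 98.6% identical to Rpl21, stood at 1857, 1223, 2425 and 1896 in CON-LFD and 818, 724, 857 and 757 in DIO-LFD, a difference of -1.19. Rpl21 itself stood at 2557, 2463, 3207 and 2086 in CON-LFD and 4034, 3733, 4451 and 4068 in DIO-LFD, a difference of 0.67 ± 0.15 (SE). The groups did not overlap in either gene, and the pseudogene was lower where the coding gene was higher. The summed count of the pair averaged 4428.6 across the controls and 4860.6 across DIO-LFD libraries. Gm15432, 98.5% identical to 1810037I17Rik, stood at 0, 20.1, 0 and 0 in CON-LFD and 132, 85.3, 135 and 127 in DIO-LFD, the gene nearest to the threshold after Gm15725 (adjusted P = 0.0553 by limma), and 3 of its 4 controls were at 0. Gm11223, 99.8% identical to Stmn1, the gene of the microtubule regulator stathmin, differed by -1.80, and Stmn1 by -1.26. Of the 257 pseudogenes past the threshold whose match was tested, the match passed as well for 45, and in 12 of them with the opposite sign. Over all 1486 pseudogenes whose match was tested, the match passed for 187, and for 75 of them with the opposite sign.

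Cytosolic ribosomal protein genes leaned higher. Of 78 members 22 passed the unadjusted threshold, 21 of them higher and 1 lower (Rps26, -0.37), and 11 were higher without overlap, beside 3.23% and 1.73% of all genes. The median was 0.15, and 67 of the 78 had a positive difference. DIO-HFD minus CON-LFD had a median of 0.17 with 17 members past, beside 12.9% of all genes. DIO-LFD minus DIO-HFD had a median of -0.02 with 0 past, where 1809 genes passed in all. Rpl10 stood at 1565, 1958, 2217 and 1416 in CON-LFD and 2785, 2638, 2699.7 and 2317 in DIO-LFD, a difference of 0.56 ± 0.14 (SE), and all DIO-LFD libraries exceeded all controls. The number higher past the threshold was 9 after correction for GC content and length, 12 without CON-LFD replicate 4, without DIO-LFD replicate 3 or with the B cell level as a covariate, 13 without CON-LFD replicate 1 and 14 after quantile normalization. It was 30 without CON-LFD replicate 3 and 32 with library weights. The median of the list was -0.01 with the B cell level as a covariate. These genes share reads with their many pseudogenes, so single members are uncertain.

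The direction of a protein-coding gene followed the GC content of its transcript. In the quintile of genes with the lowest GC content (31.0 to 43.9%), 23 genes past the unadjusted threshold were higher and 232 lower. In the quintile with the highest (55.6 to 76.3%), 157 were higher and 13 lower. In the 3 quintiles between, the numbers higher and lower were 36 and 82, then 77 and 58, then 114 and 31. The median GC content was 54.4% among the higher genes and 43.3% among the lower, beside 49.9% of all, and the median transcript length was 2343 bases among the higher and 3934 among the lower.

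The shift in each library was small. The median deviation of the highest quintile from the mean over the 16 libraries was -0.01, -0.003, -0.09 and 0.05 in CON-LFD and -0.01, 0.07, 0.08 and 0.06 in DIO-LFD on the log2 scale. CON-LFD replicate 3 was the lowest, and CON-LFD replicates 2 and 4 were within the range of DIO-LFD. CON-LFD replicate 1 (-0.011) lay just below that range, whose lowest value was -0.009 in DIO-LFD replicate 1. For the lowest quintile the deviations were 0.02, -0.02, 0.08 and 0.01 and -0.01, -0.08, -0.07 and -0.07. After correction of every library for GC content and length, an alternative chosen after seeing the data, 2 genes passed the adjusted threshold and 10 of the 19 clock genes the unadjusted one. Its effect on single lower genes is given above.

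**Figure D5:**
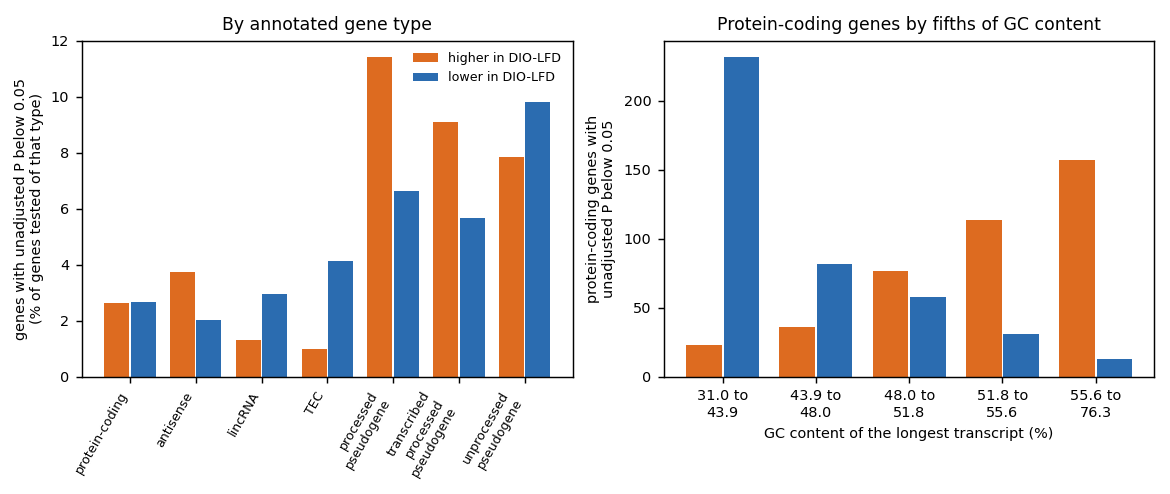
Left, share of the genes tested of each annotated type (TEC are transcripts the annotation marks as still to be tested) that passed the unadjusted threshold, higher and lower in DIO-LFD (%). Right, the number of protein-coding genes past it by quintiles of transcript GC content (%), where the higher genes go from 23 to 157 and the lower from 232 to 13 between the lowest and the highest quintile.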

How the data were processed

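RNA was profiled in the mammary fat pad opposite the tumor with stranded total RNA libraries, 4 per group. Per the labels, reads were processed with TopHat2 2.0.7, HTSeq 0.5.3p9 and DESeq2 on mm10; the methods of the study name STAR and salmon instead, and the annotation release is not given in the sources used here. The deposited values are on a log2 scale: the authors divided gene counts by DESeq2 size factors and applied a variance-stabilizing transformation (values 5.36 to 21.85, genes with at least 10 reads in all). The transformation was inverted exactly, which gave whole reads for 100.0% of values (tolerance 0.1 read) and hence library totals and normalized counts. Every column was mapped to a sample.

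Genes that reached 10 normalized counts in 4 or more of the 16 libraries (21218 of 23179) were tested with limma 3.58.1 (R 4.3.3; trend, two-sided) on log2(normalized count + 1), with the 4 groups in 1 fit (12 residual degrees of freedom), Benjamini-Hochberg adjustment and a threshold of 0.05. No count model was the main test, since the deposited values are normalized; voom on the recovered reads was an alternative and called 0 genes after adjustment. Gene types and coordinates are from GENCODE M21 (GRCm38), in which 22176 symbols (95.7%) were found once. Pseudogenes were matched to coding sequences with BLAST+ 2.17.0, leaving out genes that overlap them. No library was counted as a duplicate of another.

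The genes named were the 1 past the adjusted threshold, the 10 higher and 10 lower protein-coding genes of smallest P that had a mean of at least 50 normalized counts in either group and did not overlap, the 2 members of smallest P in each list described, and genes fixed by name (Lep, Adipoq, Acaca, Fasn, Scd1, Ucp1, Cidea, Cacna1e, Pon1, Mup9, Mup11, Cd3e, Adgre1, Itgad, Col1a1, Thbs2, Krt8, Acta1 and Krt10). A few genes that these rules select are not reported here, and they are left out of the plots and of the search for libraries that stand apart. The members and the gene lists were chosen with earlier results of these data known. Alternatives were other pseudocounts (0.5 and 8), the deposited values as they are, stricter and no filters, quantile normalization, median-centring, voom, library weights, the 8 libraries alone, a replicate block, protein-coding genes alone, the B cell level as a covariate, each of the 16 libraries left out in turn and, added after seeing the data, a correction for GC content and length.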

Additional observations from a re-analysis of the deposited data

Results flagged for a closer look

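In 29 of 390 groups of 4 libraries, a library stood apart, in that its gap to the nearest other divided by the range of the group exceeded Dixon's 95% critical value. Chance flags about 1 in 20 such groups, and values of related genes are not independent. Below, highest and lowest refer to the library's own group of 4 and not to all 8 libraries.

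DIO-LFD replicate 1 accounted for 8 of the 29, DIO-LFD replicate 4 for 5, DIO-LFD replicate 2 for 3 and replicate 3 for 0. In DIO-LFD replicate 1, normalized counts were lowest for Postn (6616.5), the MHC class II chain H2-Ob (1833.2) and the calcium channel gene Cacna1i (430.2), and highest for Fcho2 (5165.4) and Adamts4 (2468.6). Its mean log2 level, relative to CON-LFD, was lowest for B cells (1.373), MHC class II presentation (-0.108) and mammary basal epithelium (-1.614). DIO-LFD replicate 4 was highest for Acta1 (26673.2), the muscle enolase Eno3 (3908.5), the complex I subunit Ndufa2 (2587.6) and the skeletal muscle list (4.786), and lowest for Eif2a (2528.4). DIO-LFD replicate 2 was highest for Nusap1 (419.6), Uhrf1 (1146.6), which acts in maintenance of DNA methylation, and the thermogenic list (-0.129).

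CON-LFD replicate 4 accounted for 6, replicate 3 for 3 and replicates 1 and 2 for 2 each. CON-LFD replicate 4 was highest for Lep (67714.2), the lysosomal membrane protein Cd63 (6662.1), the transcription factor Klf4 (4864.4), Pgm2l1 (1690.1), Cys1 (971.7) and the complement and acute phase list (0.673). CON-LFD replicate 3 was lowest for Krt10 (88.6), Vsnl1 (46.1) and the insulin signalling list (-0.292). CON-LFD replicate 1 was lowest for Cd274 (1825.3), which encodes PD-L1, and highest for Ccne2 (561.7). CON-LFD replicate 2 was lowest for Mvd of cholesterol synthesis (244.9) and highest for Slc4a1, the red cell anion exchanger (86.9).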

How the results depend on the processing

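Against 1 gene past the adjusted threshold, there were 2 with a pseudocount of 8 and with the deposited values as they are. The correction for GC content and length also gave 2. There were 0 with voom, with the 8 libraries alone and among protein-coding genes alone. With the B cell level as a covariate there were 7, and with library weights 53. These weights ran from 0.222 (DIO-HFD replicate 3) to 10.924 (DIO-HFD replicate 4), with 2.349 for CON-LFD replicate 1 and 0.384 for CON-LFD replicate 3. Leaving out 1 library at a time gave 0 to 6 genes, the 6 without CON-LFD replicate 2. Against 1328 genes past the unadjusted threshold, there were 807 among protein-coding genes alone, 2704 with the B cell covariate, 3613 with library weights, and 841 (without CON-LFD replicate 1) to 2654 (without CON-LFD replicate 3) with a library left out. The cause of these shifts was not tested. With a replicate block the counts were 0 (smallest adjusted P 0.113) and 1224; same-numbered libraries of the 2 groups correlated at -0.183, 0.063, 0.030 and 0.204 in their deviations from the group means, so the numbers do not pair the samples. Of 55 list medians, 19 kept their sign under all 30 alternatives and 13 moved by more than 1 SD under at least 1 of them; of 145 named genes, 122 kept their sign. Depth was similar in all libraries. Precision was limited by 4 libraries a group, above all for lymphocyte genes, so absence of a call does not show that the groups were alike.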

Other observations

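Further lists gave values without a gene past the unadjusted threshold. Blood vessel genes had a median difference of 0.24 over 20 members, with Kdr, the VEGF receptor of endothelium, at 0.43 and Sox18 at 0.37. Without DIO-LFD replicate 1 the median was -0.11, Kdr differed by 0.25 and Sox18 by 0.18. Adipose progenitor genes had a median of -0.01 over 18 members, smooth muscle -0.07 over 10, Schwann cells and nerve -0.09 over 10 and adipogenic transcription factors 0.02 over 18. Chemokines and their receptors had 0.38 over 21 members, checkpoint and regulatory T cell genes 0.93 over 13, cytotoxic lymphocyte genes 0.48 over 14 and plasma cell genes 0.35 over 13. With the B cell level as a covariate the medians of the chemokine, checkpoint, cytotoxic and plasma cell lists were -0.16, -0.30, -0.31 and -0.74. Without CON-LFD replicate 3 the checkpoint median was 1.56 and the cytotoxic median 0.93, and without CON-LFD replicate 1 the plasma cell median was 1.39. Without CON-LFD replicate 2 the 3 medians were 0.26, 0.066 and -0.14 in the order checkpoint, cytotoxic and plasma cell.

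Erythroid genes had a median of 0.89 over 7 members. Hbb-bs, a beta-globin, stood at 12044, 22242, 7069 and 16355 in CON-LFD and 181465, 14290.0, 9329 and 18829.6 in DIO-LFD, with DIO-LFD replicate 1 the highest of the 8 libraries. Without that library the median of the list was -0.06. In the lipogenic genes DIO-LFD replicate 1 was the lowest of the 8, as given above, and it also had the highest Arntl, Npas2, Nfil3, Il6 and Adamts4. Whether these values belong together was not tested.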
